A study of Mus musculus with 167 samples.

Results

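The 4 mature arms of the miR-223 and miR-142a hairpins (mmu-miR-223-3p, mmu-miR-223-5p, mmu-miR-142a-3p and mmu-miR-142a-5p) were taken by name from small RNA sequencing of mouse tissues. They are 4 of the 1915 mature miRNAs counted. All 4 were counted in each of 5 tissues, which were lung, heart, brain, and blood divided into a leukocyte fraction (WBC) and an erythrocyte fraction (RBC).

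miRNAs are short RNAs cut from a hairpin precursor, and the seed near their 5′ end pairs with target mRNAs. Either arm of the hairpin (5p or 3p) can be kept in the cell, usually in unequal amounts. miR-223 is known as a myeloid miRNA, abundant in neutrophils, monocytes and platelets, where it restrains granulocyte production and inflammatory signalling. miR-142 is made in nearly all cells of blood origin and is used as a pan-leukocyte marker. Reads of either in a homogenised organ can come from resident macrophages, from infiltrating cells or from blood left in the vessels. Because the tissues were sequenced in bulk, more cells of a type and more RNA per cell cannot be told apart.

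The mature sequences show that the 4 arms are read as 4 distinct RNAs. They are those of RefSeq on mouse build GRCm38.p6, from 5′ to 3′, with bases 2 to 8 (the seed) in capitals.
miR-223-3p: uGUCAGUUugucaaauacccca
miR-223-5p: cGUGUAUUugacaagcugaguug
miR-142a-3p: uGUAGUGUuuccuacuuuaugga
miR-142a-5p: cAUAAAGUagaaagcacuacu
The seeds differ between all 4. Of the 1915 miRNAs, 1623 had a mature sequence in the reference, and each of the 4 seeds occurred in 1 miRNA among them, the arm itself.

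The hairpins are shown because the comparison between arms turns on both products of 1 precursor. Mature arms are in capitals, the 5p arm first.
Mir223: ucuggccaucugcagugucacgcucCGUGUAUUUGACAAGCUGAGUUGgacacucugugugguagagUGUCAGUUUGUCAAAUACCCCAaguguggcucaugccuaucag
Mir142: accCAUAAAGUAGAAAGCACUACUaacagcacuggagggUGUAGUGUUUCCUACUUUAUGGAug
Mir223 occupies chrX:96242817-96242926 on the plus strand and lies within an exon of the noncoding gene F630028O10Rik (96239926 to 96243636, plus strand), near Vsig4 on the opposite strand. Mir142 occupies chr11:87756864-87756927 on the plus strand, inside the noncoding host gene Mir142hg (87755577 to 87757270) and outside its annotated exons, upstream of Tspoap1. On the opposite strand of Mir142 lies Mir142b, whose mature miR-142b (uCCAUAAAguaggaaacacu) is over all 20 bases the reverse complement of part of miR-142a-3p. miR-142b had 0 counts in all 167 libraries, which allows up to 3 counts in any of them.

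Mice of the inbred strains C3Hf/Sed/Kam (C3H) and C57Bl/6 (C57), kept gnotobiotic per the study's methods, received whole thorax lung irradiation (WTLI), in which a strip over the chest was exposed to X-rays and the rest of the body was shielded, or a sham exposure. The dose was chosen by the study to be lethal to most mice of each strain by its endpoint, so the irradiated mice sequenced are those alive at collection, C3H mice in month 4 and C57 mice in month 6. Of the 35 mice, 8 were sham and 7 irradiated C3H, all female, and 15 were sham C57 (7 female, 8 male) and 5 irradiated C57 (1 female, 4 male). Every mouse gave lung, heart, brain and RBC libraries, and WBC libraries came from 5 sham and 6 irradiated C3H and from 11 sham and 5 irradiated C57 mice. A letter in the sample titles, A or B, is not explained in the sources used here and was examined as a possible batch. Organs were taken after infusion of saline. The study's methods describe a low-speed spin that parted plasma from the blood cells. How WBC were parted from RBC is not stated there, and no sorting by cell marker is described.

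Abundance is given as RPM (reads of a miRNA per 1e+06 counted reads of its library), and libraries held 1794995 to 7865102 counts. Cardiac and neuronal markers were highest in the tissues so labelled. Summed cardiac muscle miRNAs had group medians of 216940 to 261229 RPM in heart and at most 5576 RPM elsewhere. The heart library of irradiated C3H mouse 3 (letter A) stood apart with 50690 RPM of them, followed by 152407 RPM in irradiated C3H mouse 2 and 208523 RPM in irradiated C3H mouse 1. The changes in C3H heart over all mice are therefore also given without mouse 3. Summed neuronal miRNAs had group medians of 73606 to 80175 RPM in brain and at most 225 RPM elsewhere. Epithelial miRNAs of the miR-200 family had group medians of 16120 to 28590 RPM in lung, but single sham brain libraries reached 29182 RPM (C3H) and 41037 RPM (C57). The erythroid miRNAs (miR-486a-5p, both arms of miR-144, and miR-451a) were high in both blood fractions, with group medians of their sum from 40282 to 63580 RPM in RBC and from 29858 to 45490 RPM in WBC. In sham C57 mice miR-451a had a median of 14519 RPM in WBC and 12004 RPM in RBC. The WBC label therefore stands for a fraction that held much erythroid RNA, and the relation of miR-451a to the arms there is given with the other correlations below.

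In sham mice of both strains (23 mice, 16 with WBC), miR-142a was high in both blood fractions and lower in organs, whereas miR-223 had its highest mean in WBC and its RBC mean below those of lung and heart. miR-142a-5p, the more abundant arm, had a mean of 21268 ± 6906 RPM (SD, n = 23) in RBC, where it ranked 8th of 1915 miRNAs by abundance. Its mean was 14494 ± 3827 RPM (SD, n = 16) in WBC, 2702 ± 1377 RPM in lung, 1159 ± 1544 RPM in heart and 272 ± 117 RPM in brain (SD, n = 23). It made up 1.45% of all counts in WBC and 2.11% in RBC. Each step of this order passed the test within mice given below, although the ranges of RBC and WBC overlapped.

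miR-142a-3p kept the same order among organs and had its highest mean in WBC. It reached 6950 ± 1577 RPM in WBC (SD, n = 16) and 5606 ± 1447 RPM in RBC (SD, n = 23), ranking 17th in either fraction. The organ means were 774 ± 305 RPM in lung, 233 ± 249 RPM in heart and 73.5 ± 18.8 RPM in brain (SD, n = 23). In heart 1 sham C3H library stood at 1318 RPM, against 425 RPM in the next of its group.

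miR-223-3p, the dominant arm of the myeloid miRNA, varied most between mice in WBC. Its WBC values ran from 154 to 3860 RPM, with a mean of 1113 ± 1153 RPM (SD, n = 16). The means were 245 ± 129 RPM in heart, 200 ± 41.8 RPM in lung, 136 ± 83.6 RPM in RBC and 24.6 ± 8.39 RPM in brain (SD, n = 23). miR-223-5p, the minor arm, was low throughout and had a mean of 46.7 ± 39.8 RPM in WBC, 6.69 ± 2.23 RPM in lung, 4.48 ± 1.69 RPM in heart and 4.02 ± 2.21 RPM in RBC. In brain it averaged 0.514 ± 0.357 RPM, and 5 of 23 sham libraries held no read of it.

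**Figure D1:**
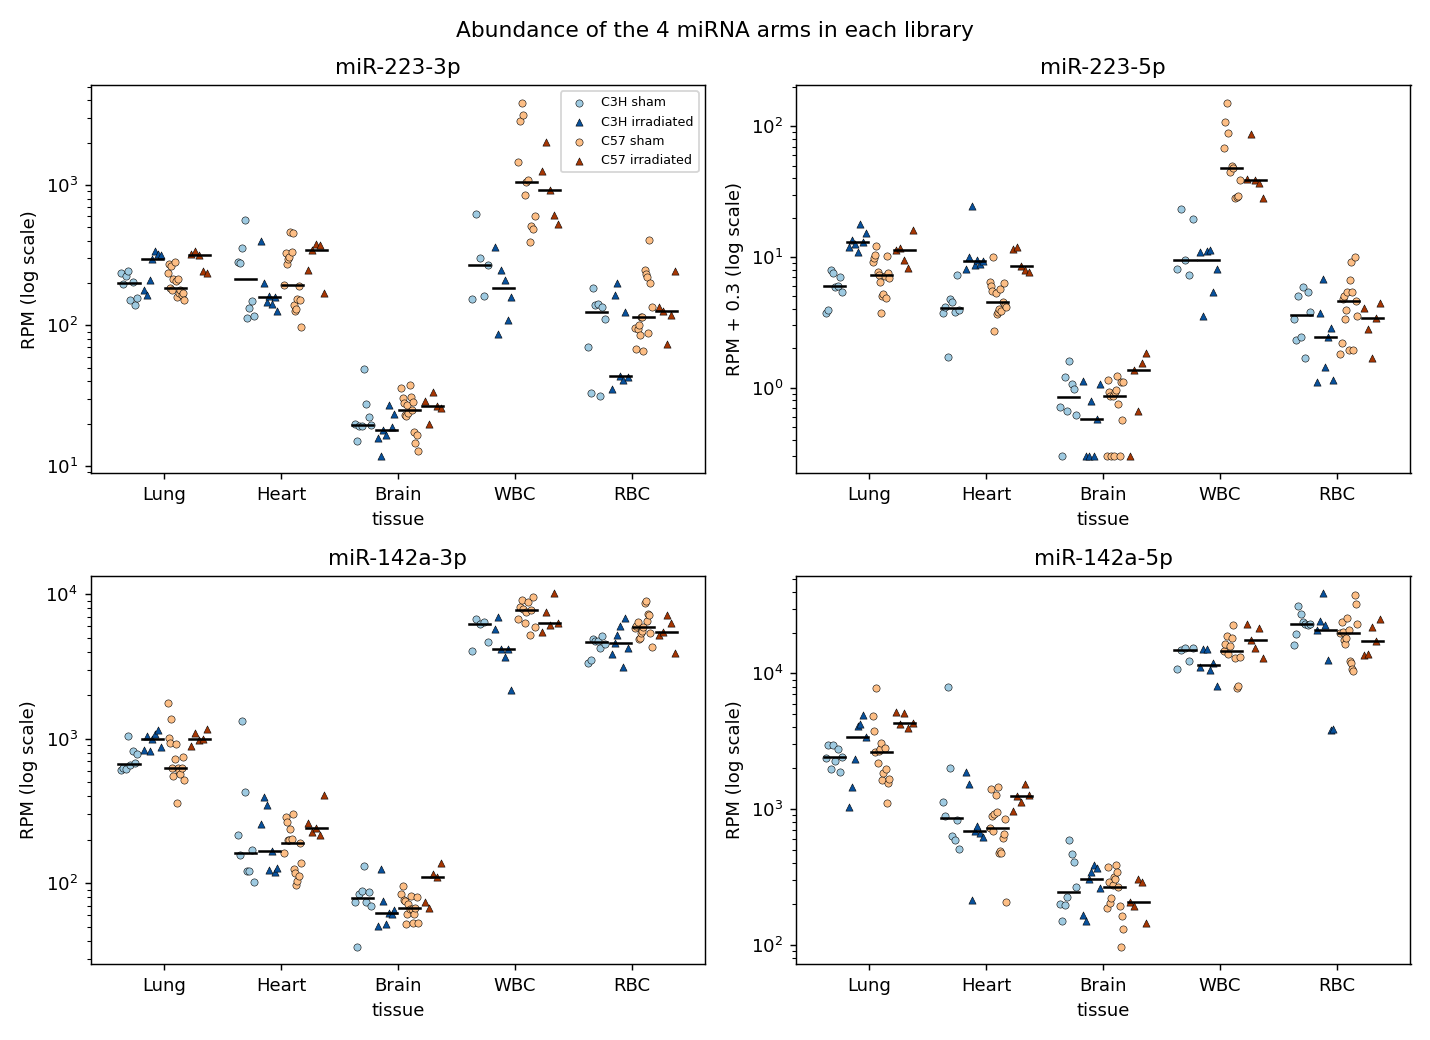
RPM on a log axis (for miR-223-5p, RPM plus 0.3, so that zeros can be drawn) of each arm in every library, by tissue, strain and irradiation, with a panel per arm and lines at the group medians. miR-142a arms sit highest in both blood fractions, and miR-223-3p spans 154 to 3860 RPM among sham WBC libraries.

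The tissues were compared within mice by a permutation test (two-sided, sign flips of the log2(RPM + 1) difference, adjusted over 40 tests). Of the 40 pairs of tissues, 38 passed at an adjusted p under 0.05. The other pairs were miR-223-3p in lung and heart (lung minus heart −0.14 on the log2 scale, higher in lung in 10 of 23 mice, permutation adjusted p = 0.270) and miR-223-5p in heart and RBC (0.19, permutation adjusted p = 0.209). Lung and heart therefore differed for miR-142a-3p (1.97 ± 0.88, higher in lung in 22 of 23 mice) but were not told apart for miR-223-3p on this scaling. On other scalings it passed as lower in lung, with −0.60 when 4 very abundant miRNAs were left out of the totals and −0.54 with TMM. The pair of miR-223-5p in lung and heart (0.49) did not pass on these scalings (0.11, permutation adjusted p = 0.382, and 0.16, permutation adjusted p = 0.193), nor did miR-223-3p in lung and RBC (0.77) with TMM (0.34, permutation adjusted p = 0.171).

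Both miR-223 arms were higher in WBC than in RBC, and the miR-142a arms differed by less and in opposite directions, the 3p arm on this scaling and not with TMM. miR-223-3p was higher in WBC than in RBC in 16 of 16 mice, by 2.85 ± 1.65 on the log2 scale (SD), and miR-223-5p in 16 of 16 mice, by 3.08 ± 1.31. miR-142a-3p was higher in WBC in 15 of 16 mice but by 0.38 ± 0.40 (permutation adjusted p = 0.00312). This small difference was 0.03 with TMM scaling (permutation adjusted p = 0.872) and so rests on the scaling. miR-142a-5p went the opposite way and was higher in RBC in 13 of 16 mice, by 0.50 ± 0.52 as the size of the difference (WBC minus RBC −0.50, permutation adjusted p = 0.000435).

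The WBC excess of miR-223-3p over lung and heart was seen in C57 mice and was not detected in C3H mice alone, whereas brain lay far below WBC in C3H mice as well (brain minus WBC −3.41, and −4.82 over all sham mice). In C57 mice lung minus WBC was −2.46 and heart minus WBC −2.23, and both passed (permutation adjusted p = 0.00138 for either). In the 5 C3H mice with WBC the same differences were −0.38 (permutation adjusted p = 0.473) and −0.19 (permutation adjusted p = 0.688), and a test with 5 mice cannot go below 0.0625. Sham C3H WBC held 154 to 626 RPM of miR-223-3p with a median of 271, and sham C57 WBC held 390 to 3860 RPM with a median of 1043. All 5 sham C3H mice were female, and among the sham C57 mice the 4 females held at most 601 RPM.

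miRNAs with the most similar pattern were ranked by Pearson r of mean log2(RPM + 1) over the 20 groups, among 401 miRNAs, as a description. These groups share mice and library totals. For miR-223-3p the most similar was its own partner arm, miR-223-5p (r = 0.96), followed by miR-215-5p (0.75), miR-19b-3p (0.70), miR-542-5p (0.69) and miR-322-5p (0.68). miR-142a-3p ranked 15th for miR-223-3p (0.61). For miR-142a-3p the most similar were miR-142a-5p (0.99), miR-1954 (0.99), miR-20a-5p (0.98), miR-15a-5p (0.98) and miR-17-3p (0.98).

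The question for the irradiated organs was whether leukocyte miRNAs were higher months after WTLI than in sham mice. Tests are those of limma-voom with quantile normalisation, adjusted over all miRNAs tested in a tissue. A change is therefore relative to the normalised distribution of all miRNAs. Quantile normalisation gives miRNAs of equal rank the same value in every library, so markers that keep the top ranks can hardly change in these fits. With scaling by library size alone the median change of all miRNAs moved from −0.08 to 0.27 in C3H lung, from −0.05 to 0.12 in C57 lung, from −0.03 to −0.17 in C3H heart and from 0 to 0.08 in C57 heart, so small changes of an arm in lung depend on the scaling.

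In C3H lung, miR-223-5p rose after WTLI and the other arms did not pass over all mice. miR-223-5p stood at 3.43, 3.63, 5.11, 5.61, 5.71, 6.77, 7.23 and 7.64 RPM in the 8 sham lungs and at 10.6, 11.7, 12.4, 12.8, 13.2, 15.0 and 17.5 RPM in the 7 irradiated lungs. The groups did not overlap, and the lowest irradiated lung lay above the highest sham lung. The share of all tested miRNAs that separated the groups in this way was not counted, here or in the comparisons below. These RPM values rest on 13 to 25 counts in sham and 36 to 67 counts in irradiated libraries. The change was 0.83 on the log2 scale (SE 0.21, limma adjusted p = 0.00233), and 1 of the 4 arms passed against 33.4% of the 350 miRNAs tested in this comparison. The other 3 arms had changes of 0.06 to 0.18. Markers of other cells moved with irradiation in the same lungs. All 4 cardiac muscle miRNAs fell (median −1.15, summed level 4759 to 7515 RPM in sham and 2569 to 5226 RPM in irradiated lungs). Of the endothelial miRNAs 1 of 2 fell. Their summed level was 380361 to 444378 RPM in sham and 297017 to 390147 RPM in irradiated lungs. Of the epithelial miRNAs 1 of 5 fell. The part of these markers in the change of miR-223-5p was not tested.

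The partner arm miR-223-3p, with 450 to 1298 counts in irradiated lungs, ranged from 139 to 242 RPM in sham C3H lungs (median 201) and from 165 to 338 RPM in irradiated lungs (median 297). The groups overlapped, and the 4 irradiated lungs above all sham lungs (297 to 338 RPM) were those with letter B, while the 3 with letter A held 165 to 210 RPM. Its change over all mice was 0.09 (limma adjusted p = 0.724), and it was −0.44 with letter A alone and 0.58 with letter B alone, the latter passing. miR-142a-3p ranged from 611 to 1042 RPM in sham and from 827 to 1147 RPM in irradiated C3H lungs, with a change of 0.06 (limma adjusted p = 0.835).

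miR-142a-5p also split the irradiated C3H lungs by the letter in the titles. Its 3 values with letter A were 1035, 1453 and 2348 RPM, and its 4 values with letter B were 3423, 4069, 4237 and 4927 RPM. Sham lungs held 1875 to 2986 RPM in both letters together. The change over all mice was 0.18 (limma adjusted p = 0.687), and it was −0.59 with letter A alone and 0.76 with letter B alone, the latter passing.

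C3H heart gave the larger change of miR-223-5p. It stood at 1.41, 3.39, 3.52, 3.60, 3.87, 4.25, 4.47 and 6.93 RPM in the 8 sham hearts and at 7.72, 8.32, 8.55, 8.99, 9.12, 9.62 and 24.4 RPM in the 7 irradiated hearts. Again the groups did not overlap, although the gap between 6.93 and 7.72 RPM is narrow. Counts were 5 to 24 in sham and 23 to 105 in irradiated hearts. The change was 1.76 (SE 0.39, limma adjusted p = 0.00144), and 1 of the 4 arms passed against 16.7% of 312 miRNAs tested. The heart at 24.4 RPM is that of mouse 3, which had the lowest cardiac muscle miRNAs of all heart libraries. Without it the change was 1.43 (limma adjusted p = 0.00338, with 12.8% of miRNAs passing), and without the sham heart at 1.41 RPM it was 1.32 and passed as well. Of the 4 cardiac muscle miRNAs, miR-499-5p fell in irradiated C3H hearts (by 0.85, and by 0.69 without mouse 3), a miRNA named here after its values were seen. The summed level of the 4 was 216176 to 291001 RPM in sham and 50690 to 246805 RPM in irradiated C3H hearts.

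Within the letters the C3H changes of miR-223-5p kept their sign and differed in size. With letter A alone they were 1.10 in lung (limma adjusted p = 0.0282) and 2.85 in heart (limma adjusted p = 0.0150). Mouse 3 is among the 3 irradiated C3H hearts with letter A, and the letter A fit was not run without it. With letter B alone they were 0.61 in lung (limma adjusted p = 0.129) and 0.69 in heart (limma adjusted p = 0.101), neither of which passed. In C3H lung the change also falls short of the fold minimum that the study applied.

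The other arms did not rise in C3H heart. miR-223-3p ranged from 113 to 562 RPM in sham (median 214) and from 126 to 398 RPM in irradiated hearts (median 160), with a change of −0.30 (limma adjusted p = 0.458), and −0.31 without mouse 3. miR-142a-3p changed by −0.15 (limma adjusted p = 0.749) and miR-142a-5p by −0.65 (limma adjusted p = 0.238), and by −0.35 and −0.39 without mouse 3. For both miR-142a arms the same sham heart was the highest, at 1318 and 8002 RPM, and without it the change of miR-142a-3p was 0.16.

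In C57 lung and heart no arm passed, while 16.6% of 350 miRNAs in lung and 3.53% of 312 in heart did. In C57 heart miR-223-5p stood at 11.1, 11.6, 8.25, 7.66 and 7.31 RPM in the 5 irradiated hearts, and 14 of 15 sham hearts (2.42 to 9.67 RPM) lay below all of them. The fitted change was 0.84 (SE 0.36, limma adjusted p = 0.222), although an exact permutation test of this arm alone (two-sided, unadjusted) gave p = 0.000387. In C57 lung it stood at 7.96 to 15.7 RPM in irradiated mice and at 3.41 to 11.9 RPM in sham mice, with a change of 0.35 (limma adjusted p = 0.205).

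The abundant arms were on the higher side in C57 organs without passing. miR-142a-5p in C57 lung ranged from 3990 to 5190 RPM in irradiated mice against a sham median of 2626 RPM, and 13 of 15 sham lungs lay below all irradiated lungs. Its change was 0.79 (SE 0.29, limma adjusted p = 0.0565). miR-223-3p in C57 lung changed by 0.38 (limma adjusted p = 0.103) and miR-142a-3p by 0.35 (limma adjusted p = 0.175). In C57 heart the changes were 0.33 for miR-223-3p (limma adjusted p = 0.668), 0.72 for miR-142a-3p (limma adjusted p = 0.222) and 0.52 for miR-142a-5p (limma adjusted p = 0.567). Sex was unequal here, since 4 of 5 irradiated and 8 of 15 sham C57 mice were male. In males alone the changes in lung were 0.38 for miR-142a-5p, 0.26 for miR-223-3p, 0.17 for miR-223-5p and 0.06 for miR-142a-3p. In heart they were 0.33 for miR-142a-3p, 0.18 for miR-142a-5p and 0.08 for miR-223-3p, whereas that of miR-223-5p in heart was 1.03 (limma adjusted p = 0.280).

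**Figure D2:**
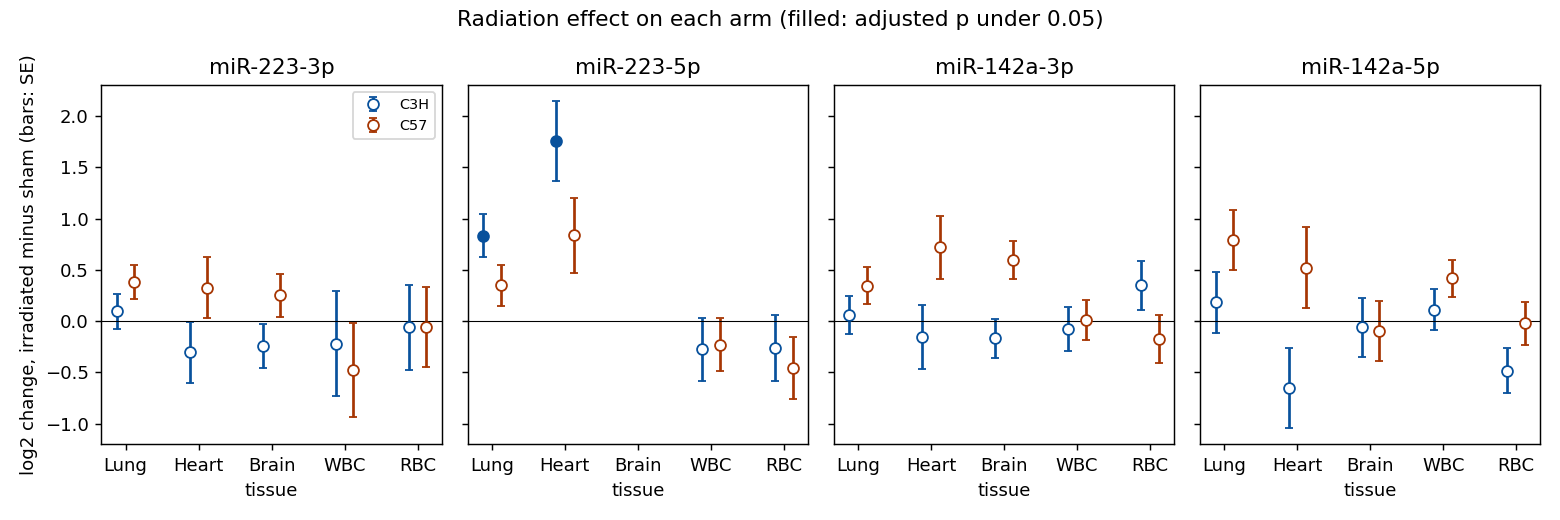
Change after irradiation (log2, irradiated minus sham, limma-voom) of each arm in each tissue for C3H and C57 mice, with error bars of 1 SE and filled points where the adjusted p is under 0.05. The filled points are miR-223-5p in C3H lung (0.83) and C3H heart (1.76).

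No difference between the strains or between the organs passed for any of the 4 arms. Over all miRNAs the interaction of strain and irradiation passed for 0.286% in lung and 0% in heart, where 51 of 312 had an unadjusted p under 0.05 and DESeq2 called 4 and edgeR 0. For miR-223-5p the C3H change exceeded the C57 change by 0.49 in lung (limma adjusted p = 0.473) and by 0.92 in heart (limma adjusted p = 0.355). The change in C3H lung minus that in C3H heart was −0.73 (limma adjusted p = 0.288), in a comparison where 6.68% of 374 miRNAs passed, and none of the 4 arms passed in C57, where 5.61% did. With the mouse as a replicate block the C3H value was −0.73 (limma adjusted p = 0.258). Mouse 3 is included in the C3H heart values of these comparisons, which were not fitted without it.

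The ratio of the arms within a library does not depend on scaling. In sham C3H mice there were 34.1 reads of miR-223-3p for each read of miR-223-5p in lung and 55.8 in heart (geometric means), and in irradiated C3H mice 19.0 and 17.3. The difference was −0.85 on the log2 scale in lung (exact permutation p = 0.00373, adjusted p = 0.0838) and −1.69 in heart (exact permutation p = 0.00963, adjusted p = 0.0963). Neither passed after adjustment over 40 ratio tests, and without mouse 3 the heart value was −1.44 (exact permutation p = 0.0236, adjusted p = 0.236). The size differed between the letters, with −1.54 for A and −0.25 for B in lung and −2.60 and −0.75 in heart, none of which passed (exact permutation adjusted p of 0.19 to 0.602). The letter A value in heart includes mouse 3. In C57 mice the difference was −0.10 in lung and −0.55 in heart. The ratio of miR-223-3p to miR-142a-3p, myeloid to pan-leukocyte, differed between irradiated and sham mice by −0.39 to 0.14 over the 10 combinations of tissue and strain, and none passed.

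**Figure D3:**
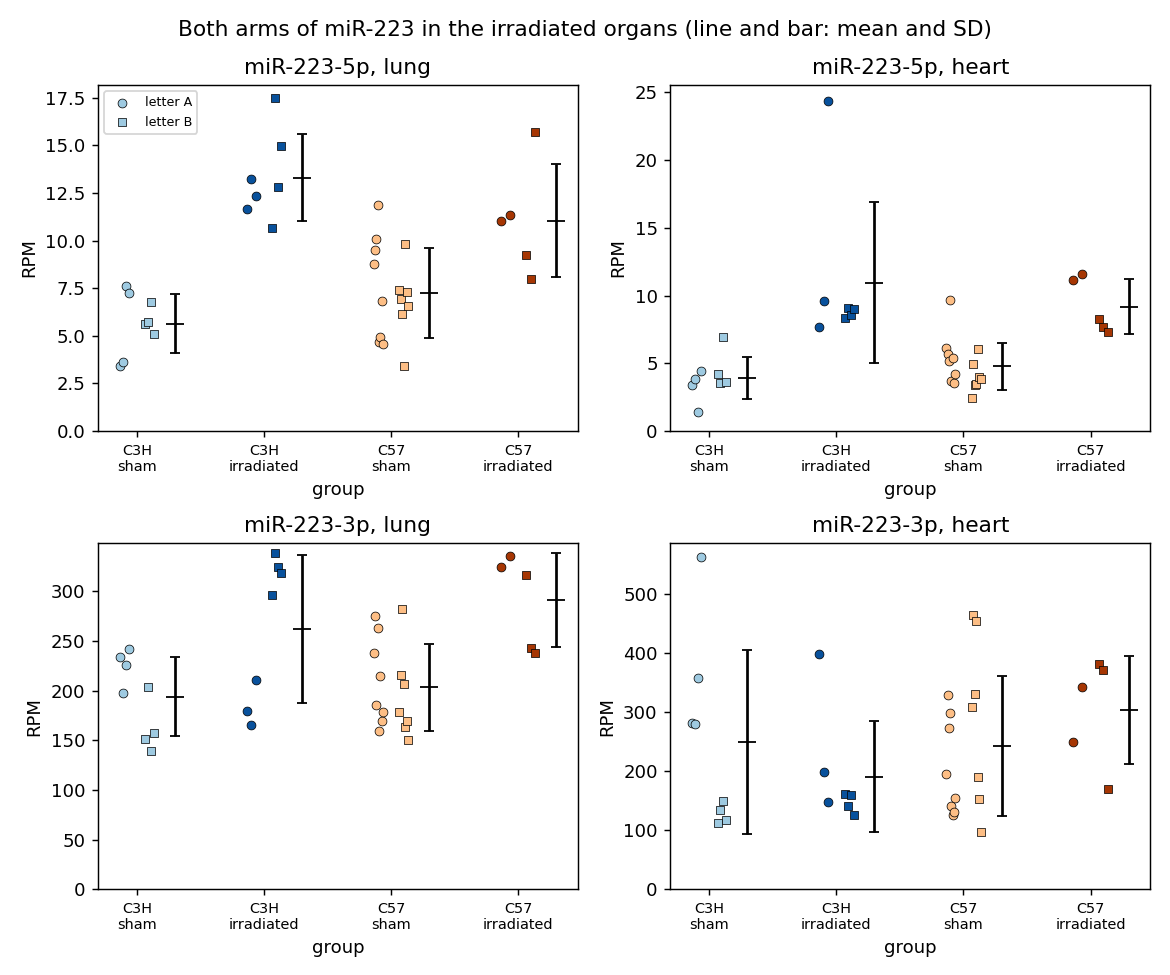
RPM of miR-223-5p and miR-223-3p in each lung and heart library, by strain and irradiation, on linear axes from 0, with the mean and SD of each group. miR-223-5p does not overlap between sham and irradiated C3H mice in either organ, whereas miR-223-3p does.

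Other miRNAs of blood cells moved in different directions, and in lung their share of calls was below that of all miRNAs. Of the 10 listed, chosen with earlier results of these data known, 7 were tested in lung and 5 in heart. In C3H lung, where 33.4% of all miRNAs passed, 2 of 7 rose, miR-146a-5p (0.46) and miR-146b-5p (1.21), which are induced by NF-kB signalling and restrain it, and the median of the 7 was 0.46 against −0.08 over all miRNAs. In C57 lung, where 16.6% did, 1 of 7 rose, miR-146b-5p (0.94), with a median of 0.65 against −0.05. In C3H heart, where 16.7% did, 3 of 5 rose, miR-146a-5p (0.96), miR-146b-5p (1.24) and the lymphocyte-enriched miR-342-3p (0.71), while miR-150-5p, a miRNA of mature lymphocytes, fell by 1.63. Without mouse 3 the value of miR-342-3p was 0.62 and no longer passed (limma adjusted p = 0.0875), and the other 3 passed. In C57 heart, where 3.53% did, miR-146b-5p rose (0.98) and miR-150-5p fell by 0.85.

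The myeloid miRNA was also set against the lymphocyte one in heart. The ratio of miR-223-3p to miR-150-5p differed by 1.38 on the log2 scale in C3H heart (exact permutation p = 0.00653, adjusted p = 0.0870) and by 1.27 in C57 heart (exact permutation p = 0.00419, adjusted p = 0.0838), and neither passed after adjustment. Without mouse 3 the C3H value was 1.28 (exact permutation adjusted p = 0.123). Erythroid miRNAs moved with irradiation in C3H heart, where miR-451a fell by 1.33 (limma adjusted p = 0.0260) and miR-144-5p by 1.09 (limma adjusted p = 0.0112), 2 of 4 where 16.7% of all miRNAs passed. Without mouse 3 miR-451a no longer passed (−1.12, limma adjusted p = 0.0875) and miR-144-5p did (−0.82, limma adjusted p = 0.0467). Their summed level there was 608 to 2740 RPM in sham and 331 to 1722 RPM in irradiated hearts. In C3H lung none of the 4 passed, and their sum was 181 to 1134 RPM in sham and 289 to 2823 RPM in irradiated mice. The part of residual blood in the values of the 4 arms was not tested.

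Outside the chest no change of any arm passed. In brain, WBC and RBC 0% of miRNAs passed in either strain or for the interaction. At an unadjusted p under 0.05 there were 9 miRNAs in C3H brain and 53 in C57 brain of 433, 20 and 12 of 291 in WBC, and 43 and 14 of 229 in RBC, and 21, 5 and 12 for the interactions. In C3H RBC edgeR called 12 and DESeq2 22 miRNAs, in C57 brain they called 3 and 9, and in C57 RBC 1 each, and for the RBC interaction DESeq2 called 1. miR-223-5p had 0 to 5 counts in brain and was not tested there.

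The change of an arm with the smallest unadjusted p there was that of miR-142a-3p in C57 brain. It ranged from 52.2 to 95.0 RPM in 15 sham brains (median 67.2) and from 67.4 to 139 RPM in 5 irradiated brains (median 110), of which 3 lay above all sham brains. The change was 0.60 (SE 0.18, limma adjusted p = 0.146), and the exact permutation test of RPM gave 0.50 (p = 0.00626, unadjusted). With letter B alone it was 0.93 (limma adjusted p = 0.0288) and with letter A alone 0.14 (limma adjusted p = 0.940). The partner arm miR-142a-5p had medians of 266 RPM in sham and 205 RPM in irradiated C57 brains. Its exact permutation difference was −0.09 (p = 0.754, unadjusted). The ratio of the 3p to the 5p arm differed by 0.60 (exact permutation p = 0.0545, adjusted p = 0.417). In WBC, miR-223-3p had medians of 271 RPM in sham and 184 RPM in irradiated C3H mice, and 1043 and 923 RPM in C57 mice, with wide overlap in both.

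Sex could be compared in sham C57 mice alone (7 females and 8 males, 4 and 7 in WBC), and 5 of 19 tests of the arms passed. Per the study's methods females entered the experiment in an older age range than males, so sex and age cannot be told apart. In heart, miR-223-3p stood at 96.9 to 191 RPM in females (median 141) and at 195 to 464 RPM in males (median 319), with no overlap. The female minus male difference was −0.92 (limma adjusted p = 0.00521), in a tissue where 39.7% of all miRNAs differed by sex. The sexes did not overlap within either letter. Of the marker lists in heart, 2 of 4 erythroid, 2 of 4 cardiac muscle and 1 of 2 endothelial miRNAs were lower in females as well. By contrast, 2 of 5 other haematopoietic miRNAs were higher (median 0.38) and none was lower. The 2 lymphocyte miRNAs are among these 5, and 1 of them was higher. The part of these lists was not tested. In lung, miR-142a-3p (−0.62, limma adjusted p = 0.0289) and miR-142a-5p (−0.93, limma adjusted p = 0.0364) were lower in females, where 8.73% of all miRNAs differed. For miR-142a-3p this was carried by letter A (360 to 627 RPM in 4 females and 938 to 1774 RPM in 4 males), while the sexes overlapped with letter B (519 to 744 RPM in 3 females and 552 to 919 RPM in 4 males). For miR-142a-5p they overlapped with letter A (1638 to 2842 and 2626 to 7840 RPM) and not with letter B (1105 to 1679 and 2184 to 3064 RPM). In lung 2 of 4 erythroid miRNAs were higher in females (median of the 4 1.63) and 1 of 7 other haematopoietic miRNAs was lower (median −0.67), and their part was not tested. No arm passed in brain, where 22.2% of all miRNAs differed.

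In blood the sexes differed in opposite directions between the fractions. In WBC, miR-223-3p stood at 390 to 601 RPM in 4 females and at 852 to 3860 RPM in 7 males, without overlap (−1.46, limma adjusted p = 0.0348, with 12.1% of all miRNAs passing). With TMM scaling the WBC difference was −1.25 and did not pass (limma adjusted p = 0.0615). Over the 5 tissues, scaling by library size alone gave a pass to 2 further tests of the arms by sex. In RBC, miR-223-3p was higher in females, at 88.3 to 403 RPM against 66.1 to 115 RPM in males (1.16, limma adjusted p = 0.0143, with 18.8% of all miRNAs passing). The letters showed the same order, with RBC medians of 227 and 201 RPM in females and 95.1 and 99.9 RPM in males for A and B.

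The reversal can also be read within mice, as a description of values already seen. miR-223-3p in RBC minus WBC was −1.64 ± 0.84 on the log2 scale in females and −4.19 ± 0.96 in males (SD), a difference of 2.55. Lymphocyte-enriched miRNAs were lower in females in both fractions. miR-150-5p differed by −2.61 in WBC (limma adjusted p = 0.000136) and by −2.19 in RBC (limma adjusted p = 2.11e-06). Of the erythroid miRNAs 1 of 4 was lower in females in RBC, and none passed in WBC. The part of the cell makeup of the fractions in these differences was not tested.

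**Figure D4:**
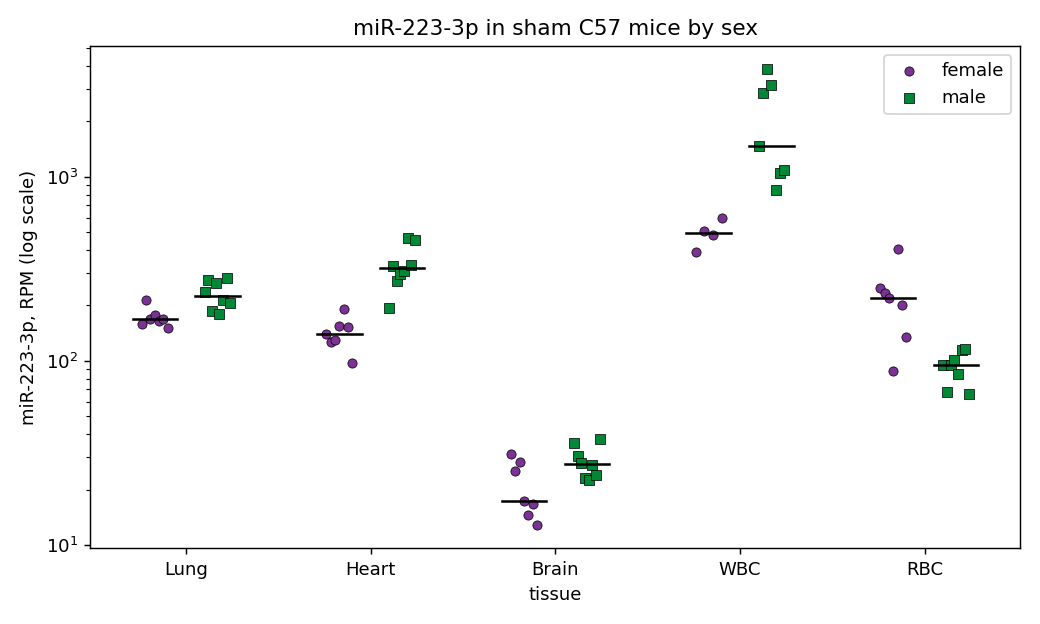
RPM of miR-223-3p on a log axis in each sham C57 library by tissue and sex, with the median as a line. Males lie above females in heart and WBC without overlap, and in RBC the female median is above the male median.

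Strain was compared between sham females, where 4 of 19 tests of the arms passed. Strain and month of collection cannot be told apart, since all C3H tissues are from month 4 and all C57 tissues from month 6. In RBC, miR-223-3p (−1.21, limma adjusted p = 0.0116) and miR-142a-3p (−0.75, limma adjusted p = 0.0164) were lower in C3H, with 19.7% of all miRNAs passing. In WBC, miR-142a-5p was higher in C3H (0.66, limma adjusted p = 0.0190, with 24.2% of all miRNAs passing), and it was 0.39 and did not pass with library size alone (limma adjusted p = 0.201). In heart, miR-142a-5p was higher in C3H (1.02, limma adjusted p = 0.0376, with 38.4% of all miRNAs passing), and with TMM it was 0.81 and did not pass (limma adjusted p = 0.0754). Markers of other cells differed in the same hearts. In C3H 2 of 4 erythroid miRNAs were higher and 1 lower (median 1.28), and 2 of 4 cardiac muscle miRNAs were higher (median 0.58). Among the other haematopoietic miRNAs, 3 of 5 were lower (median −0.37), both lymphocyte miRNAs included (median −1.63). In WBC 1 of 4 erythroid miRNAs was lower and 1 of 2 lymphocyte miRNAs higher in C3H, and in RBC none of either list passed. Of the other haematopoietic miRNAs 1 of 5 was higher in C3H in each fraction, and in WBC it is the lymphocyte miRNA just counted. The part of these in the strain differences was not tested. No arm passed in lung or brain, where 14.6% and 15.8% of all miRNAs did. Over all tissues, scaling by library size alone gave a pass to 1 further test of the arms by strain.

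Across sham C57 mice the myeloid and pan-leukocyte miRNAs were related in lung and heart. In heart, miR-223-3p and miR-142a-3p had Pearson r = 0.82 and Spearman rho = 0.80 (n = 15, permutation adjusted p = 0.00217 and 0.00405 over 15 relations), and r = 0.81 without the 2 mice farthest from the median. Within the sexes r was 0.66 in 8 males and −0.09 in 7 females, so the pooled value also carries the difference between the sexes. In lung the values were r = 0.64 and rho = 0.65 (n = 15, permutation adjusted p = 0.0350 and 0.0423), 0.55 without the 2 farthest mice, 0.35 in males and 0.39 in females. With TMM scaling the lung relation was 0.54 and did not pass (permutation adjusted p = 0.112).

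The erythroid miR-451a was related to the arms in heart as well. With miR-142a-3p it had r = 0.87 and rho = 0.87 (n = 15, permutation adjusted p = 0.00105 and 0.0018), 0.90 without the 2 farthest mice, 0.62 in males and 0.53 in females. With miR-223-3p it had r = 0.75 and rho = 0.75 (n = 15, permutation adjusted p = 0.00625 and 0.0078), 0.70 without the 2 farthest mice, −0.10 in males and 0.53 in females. In lung the relation of miR-451a to miR-223-3p was −0.03 and to miR-142a-3p −0.11. In WBC, miR-451a and miR-223-3p had r = −0.53 and rho = −0.51 (n = 11, permutation adjusted p = 0.202 and 0.262), −0.58 without the 2 farthest mice and −0.89 in 7 males. With TMM scaling this relation was −0.78 and passed (permutation adjusted p = 0.0279). Between miR-451a and miR-142a-3p in WBC r was −0.12 and rho −0.26 (n = 11, permutation adjusted p = 0.841 and 0.596).

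Over 11 mice with WBC, the level of an arm in an organ or in RBC was compared with its level in WBC in 16 relations, and none passed by Pearson r on this scaling. For miR-223-5p between lung and WBC it was 0.74 (permutation adjusted p = 0.149), 0.44 without the 2 farthest mice and 0.80 in males, and with TMM scaling it was 0.81 and passed (permutation adjusted p = 0.0328). The Spearman rho of miR-142a-5p between lung and WBC was 0.83 (permutation adjusted p = 0.0387), with Pearson r = 0.60 (permutation adjusted p = 0.250). The Pearson r was 0.24 in the 7 males and 0.34 with TMM scaling (permutation adjusted p = 0.774), and the sexes also differed in this arm in lung.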

How the data were processed

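The authors deposited 5 tables, each of 1 tissue, with the unnormalised counts of 1915 mature miRNAs. According to the methods of the study, the authors trimmed and aligned small RNA reads to mm10 miRNAs with BaseSpace applications. Use of molecular identifiers and of reads matching several miRNAs was not stated, so a floor of 3 counts covers counting error only. All 167 libraries from 35 mice were mapped to 20 groups from the labels (0 columns of no sample). Libraries within a group all differed by more than sampling noise (smallest chi-square per degree of freedom 15.5 over 746 pairs). Replicates are separate mice.

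Counts were filtered with filterByExpr (minimum count 10, total 15) of edgeR 4.0.16, a filter chosen here. Quantile normalisation, voom and limma follow the study's methods, and were run on the counts with limma 3.58.1 in R 4.3.3, with 1 fit per tissue (4 groups, or 6 with sex, and 8 for lung with heart). The threshold was a Benjamini-Hochberg adjusted p under 0.05 over all miRNAs tested, with no fold minimum. For single values, log2(RPM + 1) was tested by permutation (exact, or 100000 resamples, whose smallest p is 1e-05), and ratios had 0.5 added to each count. The fits were tested on simulated data. The labels show that the same mice gave all tissues. Deviations of lung and heart in a mouse correlated with a median of 0.15 (over 0.1 in 20 of 35 mice). Alternatives were edgeR and DESeq2 1.42.0, TMM, library size alone, other filters, the letter or sex as a covariate, each letter, males or strain alone, and leaving out libraries. The fits of other miRNAs in C3H heart without irradiated replicate 3 were added after the data were seen. The 4 arms and all lists were chosen with earlier results of these data known. The named miRNAs are the 4 arms, the 5 most similar to miR-223-3p and to miR-142a-3p, members of the haematopoietic and erythroid lists, and miRNAs sharing a seed with an arm. Outside this rule, miR-499-5p was named after its values were seen and miR-142b for its position. Sequences are from RefSeq and gene models from GENCODE. The plasma time course was not analysed here.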

Additional observations from a re-analysis of the deposited data

Results flagged for a closer look

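Of 60 groups of 4 to 10 libraries examined, 8 held a library far from the others by Dixon's criterion. For independent values with a normal distribution chance meets it in about 1 group in 20. RPM was used without a log step, the 4 arms share libraries, and all 8 lay on the high side. In C3H heart these were miR-223-3p in irradiated replicate 1 (398 RPM, next 199), miR-223-5p in irradiated replicate 3 (24.4 RPM, next 9.62), and both miR-142a arms in sham replicate 3 (1318 RPM, next 425, for the 3p arm and 8002 RPM, next 2008, for the 5p arm). In C57 heart, miR-142a-3p stood at 411 RPM in irradiated replicate 5 (next 261), the only irradiated C57 female. In brain, miR-223-3p stood at 48.6 RPM in C3H sham replicate 5 (next 27.7) and miR-142a-3p at 126 RPM in C3H irradiated replicate 2 (next 75.6). In WBC, miR-223-5p stood at 87.6 RPM in C57 irradiated replicate 2 (next 39.2).

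The sexes of sham C57 mice differed in how RBC compared with other tissues of the same mouse. These differences were computed after the opposite directions in RBC and in WBC and heart had been seen in the same mice, so they restate those values and no p is given. On the log2 scale miR-223-3p in RBC minus heart was 0.51 in females and −1.81 in males, a difference of 2.32, and in RBC minus WBC the difference was 2.55. It was 1.33 for miR-223-5p in RBC minus WBC and 1.14 for miR-142a-3p in RBC minus heart.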

How the results depend on the processing

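miR-223-5p in C3H lung and heart kept its direction under every alternative in which it was fitted. It no longer passed with letter B alone (0.61 and 0.69) or, in lung, with the fold minimum (0.83), and leaving out each library gave 0.75 to 0.89 in lung and 1.32 to 1.95 in heart, all passing. Changes that did not pass could turn sign: miR-142a-5p in C3H lung was −0.018 by edgeR, −0.028 by DESeq2, −0.14 with TMM and −0.59 with letter A alone, miR-223-3p in C3H lung was −0.44 and miR-142a-3p in C3H heart 0.069 with letter A alone. Leaving out libraries gave miR-142a-3p −0.35 to 0.16 in C3H heart (positive without sham replicate 3). Letter B alone gave a pass to miR-223-3p (0.58) and miR-142a-5p (0.76) in C3H lung, to miR-142a-3p (0.50) and miR-142a-5p (0.98) in C57 lung, and to 1 arm in brain and blood. Library size alone, which shifts all miRNAs, gave a pass to miR-223-5p in C57 heart (0.98) and to miR-142a-5p (0.87), miR-223-3p (0.53) and miR-223-5p (0.65) in C57 lung. DESeq2 gave a pass to miR-223-3p (0.40) and miR-223-5p (0.51) in C57 lung. Unadjusted exact permutation tests of RPM had p under 0.05 for miR-142a-3p in C3H lung (0.42), for miR-142a-3p (0.62), miR-142a-5p (0.74) and miR-223-5p (0.85) in C57 heart, and for miR-142a-5p (0.86), miR-223-3p (0.53) and miR-223-5p (0.57) in C57 lung, and for miR-142a-3p in C57 brain (0.50). The causes were not tested.

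Without sham replicate 4, miR-142a-3p (leave-out range 0.29 to 0.42), miR-142a-5p (0.69 to 0.92, also without sham replicate 1) and miR-223-3p (0.31 to 0.45) passed in C57 lung. The ratio of miR-223-3p to miR-223-5p in C3H lung (−0.95 to −0.71) passed without sham replicate 7, and that of miR-223-3p to miR-150-5p in C57 heart (1.11 to 1.64) without irradiated replicate 5. With C57 males alone the ratio of miR-142a-3p to miR-142a-5p in C57 RBC passed with its sign turned (0.40, exact permutation adjusted p = 0.0404, against −0.08 in all mice). With C3H alone 19 tissue pairs passed. All 16 pairs with WBC, which then have 5 mice, were lost, and 3 pairs with 8 mice as well. With C57 alone miR-223-3p in heart and RBC was lost (0.73, permutation adjusted p = 0.0565, against 0.90), TMM ended 3 calls and made 1, and totals without 4 abundant miRNAs ended 1 and made 2, among them miR-223-5p in heart and RBC (0.57). The replicate block of the mouse changed no call of the 4 arms, and over all miRNAs it called 33 in place of 25 in C3H lung minus heart. Where a filter removed an arm there is no value. At 0 to 5 counts miR-223-5p could not be compared in brain.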

Other observations

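Reads of miR-142a-3p were fewer than those of miR-142a-5p in 163 of 167 libraries, with a median ratio of 0.267. The 4 libraries with more of the 3p arm were irradiated C3H heart replicate 3 (ratio 1.62), irradiated C3H RBC replicates 6 (1.80) and 7 (1.09), and 1 sham C57 WBC library (1.18). The heart library of this set is the same one that held 24.4 RPM of miR-223-5p, and it had the lowest miR-142a-5p of its group, at 215 RPM. Irradiated C3H lung replicates 1 (0.804) and 2 (0.719), both with letter A, also had ratios above those of all 8 sham C3H lungs. Between irradiated and sham mice the ratio of the miR-142a arms passed in none of the 10 combinations of tissue and strain over all mice (in C57 RBC it passed with males alone, at 0.40), with the largest difference in C3H RBC (0.87, exact permutation adjusted p = 0.417). That difference was −0.098 with letter A alone and 1.58 with letter B alone, and 0.48 without irradiated replicate 6, and it passed in none of these.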
